A study of Mus musculus with 6 samples.

Results

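The transcripts described here were those of the mouse globins and of 2 further red cell genes, measured by RNA sequencing in the embryonic cortex with and without deletion of the RNA-binding protein Ybx1. They were chosen by gene symbol, with earlier results of these data known, as 9 of the 17348 genes in the deposited table. The embryonic globins Hbb-y, Hbb-bh1 and Hba-x, the adult globins Hba-a1, Hba-a2, Hbb-bs and Hbb-bt, the haem enzyme gene Alas2 and the membrane transporter gene Slc4a1 all had a row, and all 9 passed the filter on low counts. The WT group consisted of 3 libraries from the cortex of E13.5 embryos labelled wild type, described by the study as littermates of the mutants, whose controls elsewhere in the study carried floxed Ybx1 alleles without Cre. The cKO group consisted of 3 libraries from E13.5 embryos with the genotype Nestin-Cre, Ybx1 fl/fl. The floxed allele was made in C57BL/6J mice and loses Ybx1 exons where the Nestin promoter drives Cre, a promoter active in the progenitors of neurons and glia. Whether a library came from 1 embryo or from several was not stated, so the spread between libraries may be partly technical.

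Red cells reach the embryonic cortex inside its blood vessels, and the dissected tissue carries them along. Primitive red cells arise in the yolk sac and are the main source of embryonic globins. Definitive red cells arise later in the fetal liver and synthesise adult globins. Mid-gestation is the period in which the first population matures in the circulation while the second begins to enter it. Haemoglobin pairs alpha-like chains, encoded by Hba-x, Hba-a1 and Hba-a2, with beta-like chains, encoded by Hbb-y, Hbb-bh1, Hbb-bs and Hbb-bt. Alas2 encodes the erythroid form of the first enzyme of haem synthesis, and Slc4a1 encodes band 3, the chloride and bicarbonate exchanger of the red cell membrane. In whole tissue, fewer red cells and less RNA per red cell cannot be told apart. Nor can adult globin transcripts be assigned there to primitive or to definitive cells.

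The sequences of the adult genes bear on how far their counts can be separated. In the GENCODE M21 annotation of GRCm38, the alpha-like genes lie on the plus strand of chromosome 11, in the order Hba-x (chr11:32276400-32278116), Hba-a1 (chr11:32283511-32284465) and Hba-a2 (chr11:32296489-32297298). The beta-like genes lie on the minus strand of chromosome 7, with Hbb-y at chr7:103851749-103853216, Hbb-bh1 at chr7:103841637-103843164, Hbb-bs at chr7:103826534-103827928 and Hbb-bt at chr7:103812524-103813996. Each globin transcript has 3 exons. Alas2 is at chrX:150547375-150570638 and Slc4a1 at chr11:102348824-102365280. The coding sequences of Hba-a1 and Hba-a2, each 426 bases long without the stop codon, differed at 1 position (C381T, counted from 1 at the A of the start codon, Hba-a1 first). Those of Hbb-bs and Hbb-bt, each 441 bases long, also differed at 1 position (C417T, Hbb-bs first). The stretches that hold these differences, coding bases 351 to 410 of the alpha pair and 382 to 441 of the beta pair, are shown with the differing base in capitals.
Hba-a1: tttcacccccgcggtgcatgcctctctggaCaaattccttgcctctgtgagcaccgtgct
Hba-a2: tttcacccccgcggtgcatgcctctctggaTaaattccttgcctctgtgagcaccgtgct
Hbb-bs: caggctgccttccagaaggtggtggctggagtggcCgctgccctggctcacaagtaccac
Hbb-bt: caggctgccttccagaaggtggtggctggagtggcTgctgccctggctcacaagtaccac

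Of the windows of 100 bases in the Hba-a1 transcript, 56.5% also occurred in Hba-a2, and of those in the Hbb-bs transcript 62.6% occurred in Hbb-bt. In GENCODE M21 these transcripts were 699 (Hba-a1), 554 (Hba-a2), 628 (Hbb-bs) and 703 (Hbb-bt) bases long. Such shares depend on the annotated lengths and on which gene of a pair supplies the windows. The corresponding share was 0% between Hbb-y and Hbb-bh1, between Hbb-y and Hbb-bs and between Hba-x and Hba-a1, whose coding sequences were 76.4%, 74.4% and 61.7% identical. The deposited estimated counts carried the same distinction. Counts of Hbb-y, Hbb-bh1, Hba-x and Slc4a1 were whole in 6 of 6 libraries (to within 0.015 counts), and those of Hba-a1, Hba-a2, Hbb-bs and Hbb-bt were whole in 0 of 6. The sum of Hba-a1 and Hba-a2 was whole in 6 of 6 libraries. The sum of Hbb-bs and Hbb-bt was whole in 4 of 6, and in 6 of 6 once Hbb-b1, an adult beta globin gene of other mouse strains, was added. Reads were therefore divided within each adult pair and not between adult and embryonic genes, and the split within a pair is uncertain.

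The promoters are shown because the genes they belong to are all expressed in red cells. RefSeq promoter sequences on GRCm38.p6 were found for 7 of the 9 genes, and Hbb-bh1 and Slc4a1 are named only. The 120 bases before each RefSeq start, which for some genes lies apart from the GENCODE start, are given 5′ to 3′ on the strand of the gene. Capitals mark 4 motifs on either strand. The first, bound by the erythroid factor Gata1, is AGATAA, in which the first letter may also be T and the last may also be G. The second is CACCC, bound by the erythroid factor Klf1. The third is CCAAT, and the fourth is the TATA box with the letters TATAAA. The windows are chr7:103853208-103853327 for Hbb-y, chr11:32276480-32276599 for Hba-x, chr11:32283552-32283671 for Hba-a1, chr11:32296372-32296491 for Hba-a2, chr7:103827929-103828048 for Hbb-bs, chr7:103813924-103814043 for Hbb-bt and chrX:150547297-150547416 for Alas2.
Hbb-y: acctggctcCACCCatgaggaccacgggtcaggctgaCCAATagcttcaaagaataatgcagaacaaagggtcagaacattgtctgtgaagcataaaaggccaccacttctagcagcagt
Hba-x: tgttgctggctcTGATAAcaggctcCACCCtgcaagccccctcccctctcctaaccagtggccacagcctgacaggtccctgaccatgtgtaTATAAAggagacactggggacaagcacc
Hba-a1: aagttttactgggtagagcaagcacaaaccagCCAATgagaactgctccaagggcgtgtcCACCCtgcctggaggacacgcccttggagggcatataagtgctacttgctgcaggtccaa
Hba-a2: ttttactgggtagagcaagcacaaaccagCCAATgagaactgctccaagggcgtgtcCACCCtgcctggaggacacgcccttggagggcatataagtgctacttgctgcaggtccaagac
Hbb-bs: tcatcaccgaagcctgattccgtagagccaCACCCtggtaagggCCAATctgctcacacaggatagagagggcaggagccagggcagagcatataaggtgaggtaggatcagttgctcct
Hbb-bt: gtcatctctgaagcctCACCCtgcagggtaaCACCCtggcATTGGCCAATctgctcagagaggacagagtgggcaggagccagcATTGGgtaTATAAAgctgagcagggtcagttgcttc
Alas2: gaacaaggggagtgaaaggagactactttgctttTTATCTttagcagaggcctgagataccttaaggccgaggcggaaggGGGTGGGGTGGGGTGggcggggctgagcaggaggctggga

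CACCC occurred in 7 of the 7 windows and in 31.7% of the 32851 windows of the same length before all annotated starts. CCAAT occurred in 5 of the 7 (Hbb-y, Hba-a1, Hba-a2, Hbb-bs and Hbb-bt) and in 21.3% of all windows. A GATA motif occurred in Hba-x and Alas2, against 12.8% of all windows, and TATAAA in Hba-x and Hbb-bt, against 6.34%. In Hbb-bt, a reverse and a forward CCAAT lie directly beside each other. In Alas2, the 3 copies of CACCC lie on the opposite strand, one after the other. The Hba-a1 and Hba-a2 windows were identical over 117 of 117 bases after a shift of 3 bases, the offset between their annotated starts. The Hbb-bs and Hbb-bt windows were 73.9% identical. A match of letters does not show that a factor is bound there.

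The 6 libraries held between 15907486 and 16282921 estimated counts. Ybx1 had 1021, 528 and 1219 CPM in the WT libraries and 83.0, 117 and 147 in the cKO libraries, where CPM is the count relative to the TMM-scaled library total, and all values below are on that scale unless given as TPM and follow the order of replicates 1, 2 and 3 in each genotype. The library labelled WT replicate 2 was thus intermediate, below its own group and above every cKO library. The skin and mesenchyme list (9 genes, among them Krt5 and Col3a1) summed to 755 CPM in cKO replicate 3 and to between 7.86 and 16.05 in the other 5 libraries. The cortex list was present throughout, with a summed level between 3582 and 4594 CPM. WT replicate 2 and cKO replicate 3 both entered the results, which are also given without them where they matter.

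Of the 9 transcripts, the adult alpha globin Hba-a1 was the most abundant in each of the 6 libraries. Hba-a1 had 274, 224 and 184 CPM in the WT libraries and 328, 233 and 204 in the cKO libraries. Hba-a2 had 184, 145 and 134 CPM in WT and 236, 164 and 144 in cKO, in the same order. Per transcript length, Hba-a1 stood between rank 31 and rank 96 of all genes by TPM (a length-corrected share of all transcripts), so that a red cell transcript was among the most abundant of the cortex preparation. The highest library of both genes was cKO replicate 1 and the lowest was WT replicate 3, and the genotypes overlapped.

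The adult beta globins were less abundant and more uneven. Hbb-bs had 137, 110 and 129 CPM in the WT libraries and 230.0, 110 and 115 in the cKO libraries. Hbb-bt had 53.7, 46.2 and 39.5 CPM in WT and 67.6, 47.6 and 36.7 in cKO. In cKO replicate 1, Hbb-bs was far above the other 5 libraries, which lay close together between 110 and 137 CPM. The ratio of Hbb-bs to Hbb-bt by TPM ran from 2.25 to 3.32, whereas that of Hba-a1 to Hba-a2 ran from 1.39 to 1.57.

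Among the embryonic genes, Hbb-y, which encodes the epsilon y chain, was at the level of the adult genes. It had 178, 193 and 121 CPM in the WT libraries and 204, 222 and 149 in the cKO libraries. Hba-x, which encodes the zeta chain, had 41.4, 35.7 and 26.2 CPM in WT and 41.4, 56.1 and 33.4 in cKO. For both genes the highest library was cKO replicate 2 and the lowest was WT replicate 3. Hbb-bh1, the other embryonic beta-like gene, had 1.57, 2.35 and 1.998 CPM in WT and 1.496, 3.07 and 1.99 in cKO. These came from 24 to 49 counts, and the exact 95% Poisson interval of the highest library (2.27 to 4.06 CPM) lay just above that of the lowest (0.959 to 2.23), both of them cKO libraries. By TPM, Hbb-y exceeded Hbb-bh1 between 59.0-fold and 133-fold within a library, so nearly all embryonic beta chain mRNA was that of Hbb-y.

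The genes of the haem enzyme and the membrane protein were much lower. Alas2 had 5.90, 5.26 and 5.12 CPM in the WT libraries and 8.42, 4.89 and 4.16 in the cKO libraries. Like the adult globins, it was highest in cKO replicate 1. Slc4a1 had 4.08, 2.23 and 2.19 CPM in WT and 3.43, 3.70 and 2.11 in cKO, from 35 to 65 counts. It was the only member with its highest value in a WT library, replicate 1.

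**Figure D1:**
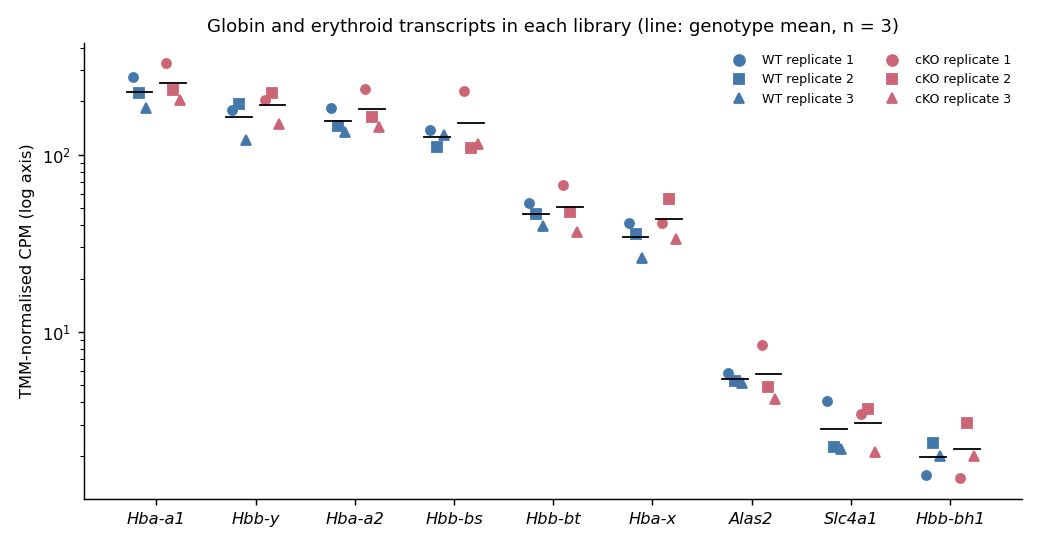
TMM-normalised CPM (log axis) of the 9 globin and erythroid transcripts in each of the 6 libraries, WT in blue and cKO in red, with a line at each genotype mean (n = 3). The genotypes overlap for all 9 transcripts, and the red circle of cKO replicate 1 stands above the rest for the adult globins and Alas2.

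By mean TPM over the 6 libraries, the levels fell in the order Hba-a1 (1803), Hba-a2 (1238), Hbb-y (1094), Hbb-bs (810), Hbb-bt (290), Hba-x (253), Hbb-bh1 (13.1), Alas2 (7.01) and Slc4a1 (1.47). Neighbours overlapped across libraries in several places. Hba-a1 (1363 to 2513 TPM) overlapped with Hba-a2, although it was higher within each library. Hba-a2 and Hbb-y overlapped, with 982 to 1788 and 739 to 1318 TPM, as did Hbb-y and Hbb-bs (615 to 1379 TPM), Hbb-bt and Hba-x (218 to 415 and 169 to 351 TPM), and Hbb-bh1 and Alas2 (9.74 to 18.7 and 5.17 to 10.8 TPM). Summed, the 7 globins took between 0.424% and 0.768% of all TPM and between 0.0627% and 0.112% of library counts. The total ran from 635 CPM in WT replicate 3 to 1109 in cKO replicate 1.

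The spread between libraries was far wider than counting error for the abundant transcripts. Hbb-y varied by 20.9% (coefficient of variation of CPM over 6 libraries), against 1.87% from counting alone, and Hbb-bs by 33.3% against 2.12%. For the scarce transcripts Hbb-bh1 and Slc4a1, counting alone gave a variation of 17.3% and 14.5%, against 27.8% and 29.8% observed. Highest and lowest libraries of a member differed between 1.76-fold (Hba-a2) and 2.14-fold (Hba-x).

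Whether the blood transcripts differed between genotypes was tested with edgeR's quasi-likelihood test, fitted over 13340 genes. At an adjusted p-value under 0.05, 0 of the 9 members rose and 0 fell in cKO, beside 0% of all tested genes in either direction. Ybx1 itself, with a log2 fold change of -3.00 (standard error 0.33), was not called by edgeR either (adjusted p = 0.1285), so that a count of 0 says little about the absence of a difference. At an unadjusted p-value under 0.05, 0 of the 9 were called, against 1.75% of all genes higher and 1.81% lower. In DESeq2, edgeR's exact test and limma-voom, 0 of the 9 were also called at an adjusted p-value under 0.05. The genotypes overlapped for 9 of the 9, whereas 9.04% of all genes showed no overlap, 4.21% with every cKO library above WT and 4.83% with every cKO library below. The adjusted p-value of each member was 0.99998 in the edgeR test.

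The fitted log2 fold changes of the members (cKO over WT) were all above 0, with a median of 0.16, while the median of all tested genes was 0.0019 and 50.8% of them lay above 0. The members share the same 6 libraries and the same blood, so they are not 9 separate observations. Hba-x had the highest value, 0.34 (standard error 0.22), with means of 34.4 ± 7.68 CPM in WT and 43.6 ± 11.5 in cKO (SD, n = 3 each). The 95% interval of its fold ran from 0.895 to 1.80. Hbb-bs followed with 0.27 (standard error 0.27), from 125 ± 13.9 to 152 ± 67.9 CPM. Hba-a2 and Hbb-y had 0.23 each (standard errors 0.19 and 0.20), with means of 154 ± 26.0 and 164 ± 38.0 CPM in WT and 181 ± 48.7 and 192 ± 38.1 in cKO.

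The remaining members differed by less. The log2 fold change was 0.16 for Hba-a1 (standard error 0.20), for Hbb-bh1 0.15 (0.31), for Hbb-bt 0.12 (0.21), for Slc4a1 0.12 (0.33) and for Alas2 0.10 (0.26). Fitted with each adult pair summed into 1 feature, Hba-a1 and Hba-a2 together had 0.19 (standard error 0.20) and Hbb-bs and Hbb-bt together 0.24 (0.25). Over all members the 95% intervals reached from 0.644-fold (Slc4a1) to 1.86-fold (Hbb-bs). In the fit of genotype alone, without pairing by replicate number, differences of this size in either direction were not distinguishable from the spread between libraries.

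Single libraries set several of these signs. Without cKO replicate 1, the log2 fold changes of Hba-a1, Hbb-bs, Hbb-bt and Alas2 were -0.050, -0.15, -0.13 and -0.26, and that of Hba-a2 was 0.0030. Without cKO replicate 2, Hbb-bh1 was at -0.18 and Slc4a1 at -0.034. Slc4a1 was also below 0 without WT replicate 2 (-0.026) and without WT replicate 3 (-0.036). Hbb-y, Hba-x and Hba-a2 stayed above 0 whichever library was left out, from 0.048 to 0.38 for Hbb-y, from 0.12 to 0.50 for Hba-x and from 0.0030 to 0.38 for Hba-a2. When neither cKO replicate 3 nor the library labelled WT replicate 2 was used, Hbb-y was at 0.51 and Hba-x at 0.53, with adjusted p-values of 0.9994 by the same edgeR test.

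**Figure D2:**
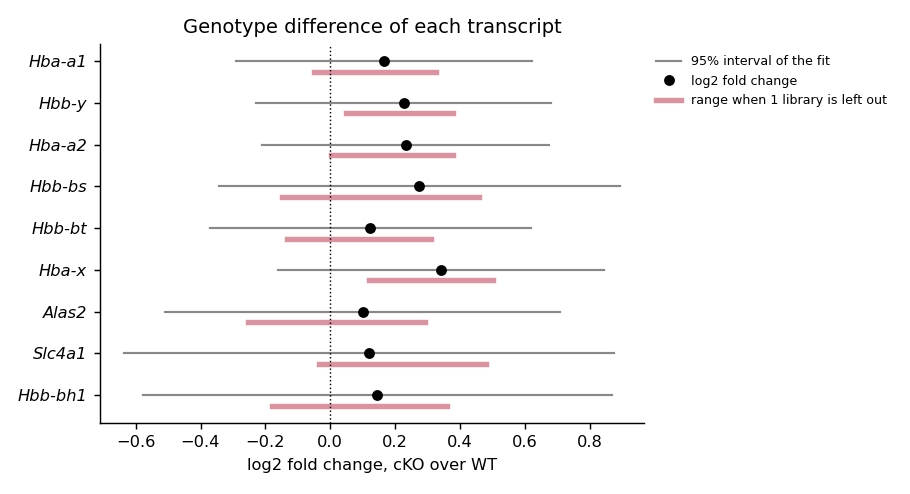
Log2 fold change (cKO over WT) of each transcript as a black point, its 95% interval in the fit of 6 libraries as a grey line, and the range of values when 1 library is left out as a red bar. Every interval includes 0, and the red bars of Hba-a1, Hbb-bs, Hbb-bt, Alas2, Slc4a1 and Hbb-bh1 cross it.

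The balance of embryonic to adult globin was measured within each library, where it needs no scaling for depth. By TPM, the ratio of summed embryonic to summed adult globins was 0.305, 0.392 and 0.277 in the WT libraries and 0.259, 0.454 and 0.331 in the cKO libraries. Both the lowest and the highest ratio belonged to cKO libraries. The means were 0.325 ± 0.0601 in WT and 0.348 ± 0.0987 in cKO (SD, n = 3 each), a difference smaller than the spread within either genotype. From the read counts the ratios were 0.341, 0.440 and 0.307 in WT and 0.287, 0.509 and 0.369 in cKO. No p-value is given for the ratios, since they combine chosen genes, and an exact two-sided test of 3 against 3 libraries cannot go below 0.1.

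The balance differed between the chains. Embryonic transcripts made up between 42.1% and 60.1% of beta chain mRNA by TPM and between 6.05% and 11.0% of alpha chain mRNA. The embryonic to adult ratio of the beta chains was 0.989, 1.31 and 0.770 in the WT libraries and 0.727, 1.505 and 1.05 in the cKO libraries. That of the alpha chains was 0.0792, 0.0847 and 0.0720 in WT and 0.0644, 0.124 and 0.0841 in cKO. In each library the beta ratio was thus above the alpha ratio, and cKO replicate 1 was lowest and cKO replicate 2 highest for both chains. Beta ratios averaged 1.02 ± 0.273 in WT and 1.09 ± 0.391 in cKO, and alpha ratios 0.0786 ± 0.00638 and 0.0909 ± 0.0305 (SD, n = 3 each).

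**Figure D3:**
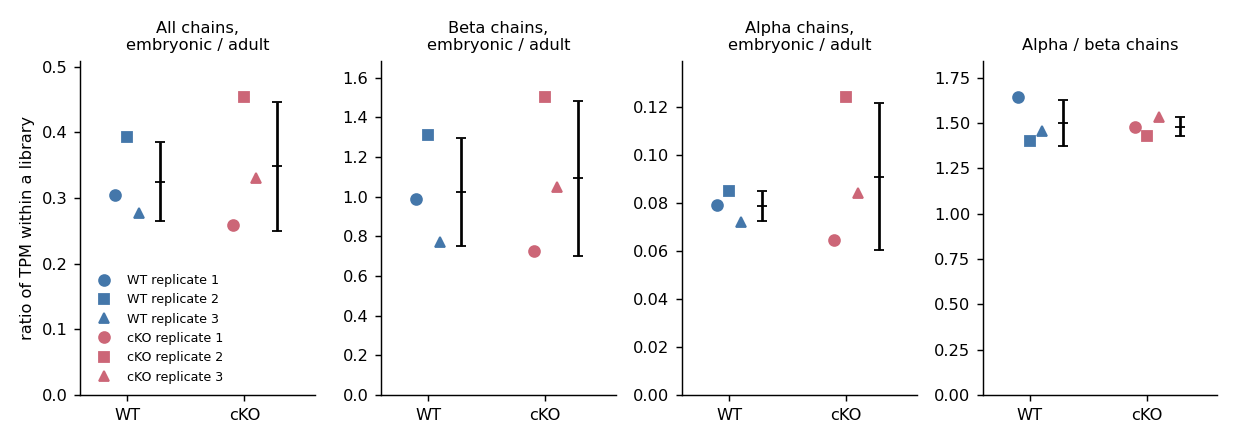
Ratios of summed TPM within each library (axes from 0), with the mean and SD of each genotype beside the points (n = 3). Embryonic to adult ratios lie between 0.727 and 1.505 for beta chains and between 0.0644 and 0.124 for alpha chains, and the genotypes overlap in every panel.

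Across these shifts, the sum of alpha chains kept a narrow relation to the sum of beta chains. The alpha to beta ratio by TPM was 1.65, 1.40 and 1.46 in the WT libraries and 1.48, 1.43 and 1.54 in the cKO libraries. Its means were 1.501 ± 0.128 in WT and 1.48 ± 0.0543 in cKO (SD, n = 3 each). Alpha chain mRNA therefore exceeded beta chain mRNA in each of the 6 libraries by TPM, by 1.40-fold to 1.65-fold. From the read counts, with no correction for length, the ratio ran from 1.15 to 1.35.

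Of all globin mRNA by TPM, Hba-a1 held between 30.9% and 34.7% and Hba-a2 between 21.0% and 23.3% in each library. Hbb-y held between 16.9% (cKO replicate 1) and 24.4% (cKO replicate 2). Hbb-bs held between 11.4% (cKO replicate 2) and 17.96% (cKO replicate 1), so that these 2 shares moved in opposite directions in those libraries. Shares add up to a fixed total, and the level of Hbb-y was not low in cKO replicate 1. It had 204 CPM there, above every WT library. Hba-x held between 3.61% and 6.50%, and Hbb-bh1 between 0.127% and 0.346%. Hbb-bt was the steadiest of the scarcer chains, at 5.43%, 5.41% and 5.50% in WT and 5.41%, 5.06% and 4.74% in cKO. Its share was the only one of the 7 for which the genotypes did not overlap, and the gap between the nearest libraries vanished at this rounding. It was singled out after the values were seen, its counts are uncertain because reads are divided with Hbb-bs, and 9.04% of all genes showed no overlap in CPM.

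**Figure D4:**
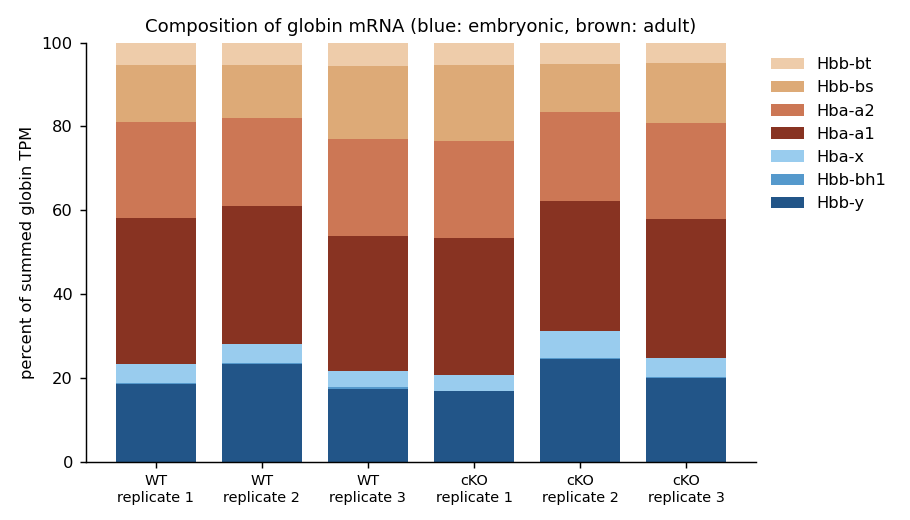
Share of each globin in the summed globin TPM of each library, in percent, with embryonic genes in blue and adult genes in brown. The embryonic part ranges from 20.6% in cKO replicate 1 to 31.2% in cKO replicate 2, and the WT libraries lie between them.

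Alas2 followed the adult globins more closely than the embryonic ones over the 6 libraries. It had 8.42 CPM in cKO replicate 1, which was also the highest library for the adult sum. In the other libraries Alas2 had 4.16 to 5.90 CPM, with counting intervals that overlapped. The relation without cKO replicate 1 was not tested. Per 1000 TPM of adult globin, Alas2 had 1.62, 1.78 and 1.88 TPM in the WT libraries and 1.77, 1.58 and 1.496 in the cKO libraries. Over the 6 libraries, the Pearson correlation of its log2 CPM was 0.931 with the adult globin sum and 0.351 with the embryonic sum. Hba-x had 0.421 with the adult sum and 0.94 with the embryonic sum, which contains it. Slc4a1 had 0.666 and 0.68. Hbb-bh1, with 24 to 49 counts, had -0.613 with the adult and 0.277 with the embryonic sum. These values describe 6 libraries that share their preparation and carry no test.

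The genes with the most similar pattern outside the members were sought among genes with at least 0.5 times the SD of the globin profile. For the adult sum, 5895 genes were compared, and Col9a3, Map3k13, Fam131a, Ube2h and Slc25a22 had the highest correlations, 0.982 to 0.992. All 5 were highest in cKO replicate 1 and next highest in WT replicate 1, as the adult globins were. Map3k13, a neuronal kinase, had 44.9, 38.7 and 38.8 CPM in the WT libraries and 52.2, 40.1 and 37.7 in the cKO libraries. These genes were picked for their likeness out of many over few libraries, so the values are a description only. For the embryonic sum, Spata1, Noxo1, Ankrd53, Slc9b2 and Chrna3 had 0.923 to 0.953 over 5593 genes, at levels between 0.187 and 7.02 CPM.

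Other globin genes were near or at 0. Hbq1a and Hbq1b, theta-like genes of the alpha cluster, had at most 2 counts in any library, and Hbb-b1 had at most 1. Hbq1b had 2 counts in each WT library and 0, 1 and 0 in the cKO libraries. The values of these genes, at most 0.1255 CPM, lay below the upper limits of 0.181 to 0.188 CPM for a count of 0. Myoglobin (Mb) had at most 4 counts, neuroglobin (Ngb) at most 3 and androglobin (Adgb) at most 1. Cytoglobin (Cygb), which is expressed outside blood, had 13.9, 8.79 and 10.6 CPM in WT and 13.8, 8.71 and 9.89 in cKO, with a log2 fold change of -0.037 (standard error 0.22).

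The wider red cell programme was described with 5 lists, in which 53 of 55 genes had a row and 38 passed the filter on low counts. Of these 38, 0 were called at an adjusted p-value under 0.05 in the edgeR test, and 3 were higher and 0 lower in cKO at an unadjusted p-value under 0.05, against 1.75% and 1.81% of all genes. The 3 were Ermap, Aqp1 and Cpox. The median log2 fold change was 0.043, beside 0.0019 for all genes. Every cKO library was above every WT library for 5 of the 38 genes and below for 1 of them, and 9.04% of all genes showed no overlap in either direction.

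The enzymes of haem synthesis after Alas2 act in all cells. The list of haem synthesis and mitochondrial iron import had 11 of 11 genes tested, 7 with a positive and 4 with a negative log2 fold change, a median of 0.078 and a summed level of 287 to 298 CPM in WT and 300.0 to 304 in cKO. Cpox, coproporphyrinogen oxidase, averaged 14.97 ± 1.02 CPM in WT and 17.8 ± 0.355 in cKO (SD over 3 libraries), and its log2 fold change was 0.25 (standard error 0.093, adjusted p = 0.99998 in the edgeR test). The most abundant members of the list, Urod, Glrx5, Slc25a37 and Fech, had 0.087, 0.078, 0.040 and -0.078.

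Of 13 genes of the red cell membrane and skeleton, 12 had a row and 5 were tested, with 2 positive and 3 negative log2 fold changes and a median of -0.11. Of the 12, 7 were too scarce to test. Rhag, of the Rh complex, had between 0 and 2 counts, and Epb42, which binds band 3, between 1 and 8. Aqp1, a water channel that red cells share with the choroid plexus, had 1.27 ± 0.148 CPM in WT and 2.18 ± 0.506 in cKO (SD over 3 libraries), with a log2 difference of 0.78 (standard error 0.26). Epb41, Ank1, Gypc and Sptb, which have the highest means, had -0.11, -0.11, -0.14 and 0.15, and the neural tissue also expresses the first 2.

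Several transcription factors of red cells were scarce. Gata1 had between 1 and 5 counts, Klf1 between 4 and 10, Nfe2 between 1 and 6 and Gfi1b between 0 and 3. In this list of 9 genes, 5 were tested, all with positive log2 fold changes and 0 called, at a median of 0.14. Tal1, a partner of Gata1 that vessels also express, had 1.25 ± 0.398 CPM in WT and 1.90 ± 0.353 in cKO (SD, n = 3 each). Ldb1, Klf3, Zfpm1 and Lmo2, with higher levels, had 0.097, 0.11, 0.27 and 0.14.

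Factors known for switching between embryonic and adult globin were present, and neural cells are known to express several of them. In this list 6 of 6 genes were tested, 1 with a positive and 5 with a negative log2 fold change, at a median of -0.067. Bcl11a, the best known repressor of embryonic and fetal globins and also a cortical neuron factor, had 578 CPM on average and a log2 fold change of -0.085 (standard error 0.13). Sox6, Igf2bp1 and Zbtb7a had -0.084, -0.050 and -0.00098.

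In the list of other erythroid genes, 15 of 16 had a row and 11 were tested, 6 with a positive and 5 with a negative value, at a median of 0.035. Ermap, an erythroid membrane protein gene, had 1.22 ± 0.769 CPM in WT and 3.76 ± 0.600 in cKO (SD, n = 3 each). Its log2 fold change of 1.61 (standard error 0.40) was the highest of the 38 tested genes of these lists, at an adjusted p = 0.99998 in the edgeR test. In RefSeq on GRCm38.p6, Ermap (chr4:119175457-119190013) lies 87313 bases from the deleted gene Ybx1, with 6 annotated genes between them. It had 14, 34 and 11 counts in the WT libraries and 65, 49 and 69 in the cKO libraries, so that WT replicate 2, intermediate in Ybx1, was also intermediate in Ermap. The part of its position in this difference was not tested. Tfrc, the transferrin receptor, Xpo7, Cat and Fam210b, the most abundant, had -0.17, -0.051, 0.035 and 0.078. Hemgn had 0 counts in 3 libraries, and Trim58 had 1 count in all.

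Markers of other cells of blood and vessels were read beside the globins. The platelet and megakaryocyte list (8 genes) summed to 11.7 to 15.3 CPM in WT and 10.5 to 14.7 in cKO, and Pf4 and Ppbp, its defining genes, had at most 15 and 6 counts. The microglia and macrophage list (10 genes) summed to 24.0 to 38.8 CPM in WT and 26.3 to 40.4 in cKO, and the endothelial list (10 genes) to 157 to 210 and 179 to 234. The pericyte list (7 genes) summed to 51.8 to 85.7 CPM in WT and 65.7 to 76.3 in cKO. The highest library was WT replicate 1 for platelets and pericytes and cKO replicate 3 for the other 2 lists. For the adult globins, cKO replicate 1 was highest. The library cKO replicate 3 is the one with skin and mesenchyme transcripts, whose part in these lists was not tested. Its Mrc1, of the macrophage list, had 6.99 CPM, against 0.874 to 2.64 in the other libraries. The genes with the highest mean in each list (Gp1bb, Csf1r, Slc2a1 and Rgs5) overlapped between genotypes, and of their 3, 9, 10 and 7 tested genes 0 were called at an adjusted p-value under 0.05 in the edgeR test. The 2 highest libraries for the platelet sum, WT replicate 1 and cKO replicate 1, were also the 2 highest for adult globins. That sum was mostly Gp1bb, with 9.85, 6.56 and 8.49 CPM in WT and 10.7, 6.64 and 6.99 in cKO. Pf4 was lowest in cKO replicate 1 (4 counts) and highest in cKO replicate 3 (15 counts). Ppbp had 6 counts in WT replicate 1 and 3 in cKO replicate 1. The part of platelets in the globin values was not tested.

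**Figure D5:**
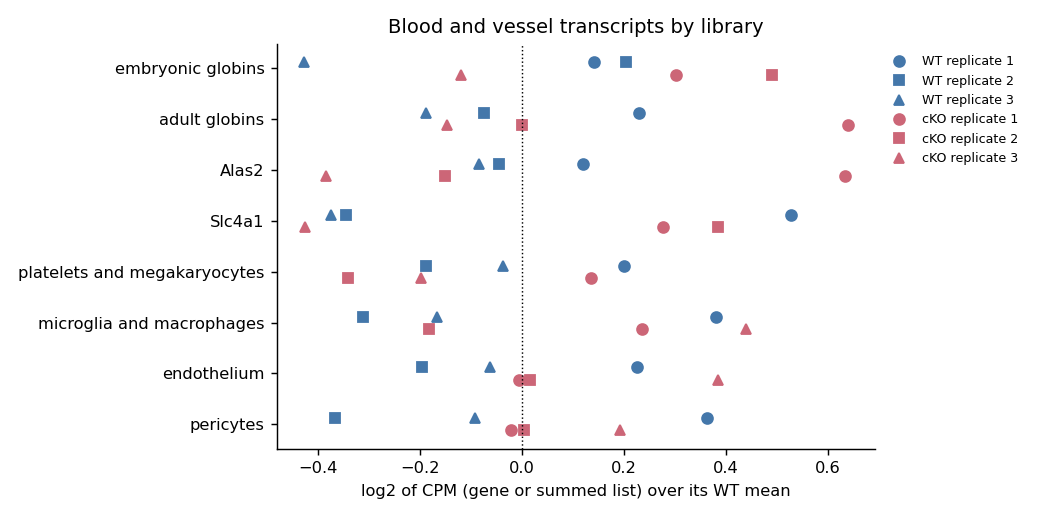
Log2 of the CPM of each gene or summed list over its WT mean, by library, WT in blue and cKO in red. cKO replicate 1 lies furthest right for adult globins and Alas2 and cKO replicate 2 for embryonic globins, while cKO replicate 3 lies left for globins and right for microglia and endothelium.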

How the data were processed

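The 6 libraries, 3 WT and 3 cKO, came from cortical RNA of E13.5 embryos and were grouped and numbered by their titles. mRNA libraries were run on a DNBSEQ platform. The submitters' processing notes name HISAT2 2.2.1, Bowtie2 2.4.5, RSEM 1.3.1 and the build GRCm38 (mm10), without their roles. The annotation and strand setting are not given in the sources used here. The authors deposited estimated counts that were not scaled for depth, of which 10.9% were not whole. The deposited TPM are length-corrected shares with an equal sum in each library. The deposited FPKM, scaled for both length and depth, served as an alternative only. The 6 columns of group averages were not used.

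Counts were rounded, filtered with filterByExpr (minimum count 10, total 15), scaled with TMM factors and tested with edgeR's quasi-likelihood test (edgeR 4.0.16, limma 3.58.1, R 4.3.3), fitting genotype alone, with Benjamini-Hochberg adjustment over 13340 genes. The script was tested on simulated data. Standard errors are the log2 fold change over the square root of F. Ratios used TPM. Intervals of counts and limits of 0 counts (3 counts) cover counting error only, at 95% confidence. Log2 CPM for correlations used a prior count of 2. Named were all members, other globins, Ybx1, up to 4 genes per list by mean CPM or call, and the 5 genes most like each globin sum, and any further gene was picked with its values in view. The members and lists were chosen with earlier results of these data known. Alternatives included RLE, upper-quartile and no factors, no filter, a floor of 10 counts throughout, limma-voom, the exact test, DESeq2 1.42.0, a replicate block, summed adult copies, members left out of totals, and libraries left out. Leaving out both replicates numbered 1 was chosen after the data were seen. Values of some single genes of the marker lists are not reported here.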

Additional observations from a re-analysis of the deposited data

How the results depend on the processing

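None of the 9 members and none of the 38 tested erythroid list genes had an adjusted p-value under 0.05 in any of the 19 alternative fits, the lowest for a member being 0.481 (Hbb-y with the replicate block). The log2 fold changes of Hbb-y, Hba-x and Hba-a2 were above 0 in all 19 fits, from 0.048 to 0.51, from 0.12 to 0.53 and from 0.0030 to 0.38. Across the fits that each left out 1 library, the others ranged from -0.050 to 0.32 (Hba-a1), -0.15 to 0.46 (Hbb-bs), -0.13 to 0.31 (Hbb-bt), -0.26 to 0.29 (Alas2), -0.18 to 0.36 (Hbb-bh1) and -0.036 to 0.48 (Slc4a1). Without both libraries numbered 1, Hbb-bt, Hbb-bs and Alas2 were at -0.019, -0.080 and -0.19. The log2 difference of ratios (cKO minus WT), 0.078 for embryonic to adult globin, ranged from -0.13 to 0.27 when 1 library was left out, that of the beta chains from -0.20 to 0.33, that of the alpha chains from -0.093 to 0.38 and that of alpha to beta from -0.064 to 0.051. The alpha to beta value, -0.017, was 0.023 by medians and 0.052 without both libraries numbered 1. When 1 library was left out, the adult globin sum ranged from -0.062 to 0.33 and the embryonic sum from 0.051 to 0.42. Without both WT replicate 2 and cKO replicate 3, the embryonic sum was at 0.54, against 0.25 with all libraries, and the adult sum at 0.30, against 0.18. The cause was not tested.

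Over all genes, 0 were called in either direction, and 2 higher and 2 lower with DESeq2, 2 and 1 with the exact test, 1 and 1 without both WT replicate 2 and cKO replicate 3, and from 0 to 1 each when 1 library was left out. At an unadjusted p-value under 0.05, 234 were higher and 242 lower, against 390 higher with no filter, 148 higher with DESeq2, 105 and 141 without both WT replicate 2 and cKO replicate 3, 481 and 499 without both libraries numbered 1, and 121 to 571 and 118 to 482 when 1 library was left out. No member passed that unadjusted threshold, and Hba-x did without cKO replicate 3 and Hbb-y without both WT replicate 2 and cKO replicate 3.

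The replicate block was not used, because libraries sharing a number did not deviate together for each number. The study describes 3 independent replicate experiments with littermate controls, but not whether a shared number marks a litter or an experiment. The correlations of deviations were 0.41, 0.31 and -0.02 for numbers 1, 2 and 3, and number 3 includes the cKO library with skin and mesenchyme transcripts. By CPM, Hbb-y, Hba-x, Hba-a1 and Hba-a2 were higher in cKO in 3 of 3 pairs sharing a number. Hbb-bt was higher in 2 of the pairs and each other member in 1. Under the replicate block, edgeR called 1 higher and 1 lower gene of 13340 (477 and 613 unadjusted). There 4 members passed unadjusted, Hbb-y with a log2 fold change of 0.23 (standard error 0.052), Hba-a2 with 0.21, Hba-x with 0.34 and Hba-a1 with 0.16, and their adjusted p-values in edgeR were 0.481, 0.526, 0.569 and 0.584. Without the block, the intervals of all 9 members include 1.5-fold, and counts of Hbb-bh1 and Slc4a1 limit these further.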
